A study of Mus musculus with 8 samples.

Results

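The complement components and receptors examined here were 9 of the 54532 genes in the count files: the 3 chains of C1q (C1qa, C1qb and C1qc), the components C3, C4b, factor B (Cfb) and properdin (Cfp), and the anaphylatoxin receptors C3ar1 and C5ar1. They were chosen by name and matched to their Ensembl identifiers. All 9 passed the filter on low counts. RNA-Seq of polyadenylated RNA was available for 8 libraries of mouse BMDMs (macrophages differentiated from bone marrow in culture) in 4 groups of 2 libraries: wild-type (WT), Trex1-KO, Trex1-KO+H151 and Trex1-KO+SN-011. WT and Trex1-KO cells received the DMSO vehicle, H151 was given at 500 nM, and all incubations lasted 12 h. No concentration of SN-011 stands in the labels, and the study's methods put both antagonists at the same concentration. The SN-011 libraries have later record numbers than all others, so compound and batch cannot be told apart in any comparison of SN-011. Donors of marrow were 6 to 8 weeks old, and the cells had been cultured for 7 days with supernatant of L929 cells. Per the study's methods the background was C57BL/6J, with knockout mice bred from heterozygous parents and WT mice purchased, so WT cells were not described as littermates. The study describes the 2 libraries of a group as independent experiments, and neither it nor the labels say whether they came from separate animals, so p-values measure the spread between these libraries.

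Trex1 degrades cytosolic DNA. Without it, self DNA activates cGAS and STING, which drive type I interferon. H151 and SN-011 are small molecules that inhibit STING, the first by binding a cysteine near the membrane and the second by occupying the pocket for cyclic dinucleotides. Complement is a cascade of plasma proteins that opsonize targets and call in leukocytes. C1q recognizes immune complexes and starts the classical pathway, C4 and C2 form its C3 convertase, and factor B and properdin build and stabilize the convertase of the alternative pathway. Both convertases split C3 into C3b, which coats targets, and C3a, which acts on the receptor C3ar1, while C5a acts on C5ar1. Macrophages make much of the C1q of the body, and lack of the early classical components is strongly linked to lupus.

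Total counts ran from 11845470 to 17284863 per library. Levels are in CPM, counts scaled to a shared library total and adjusted for composition by TMM, the trimmed mean of M-values. All adjusted p-values are from edgeR's quasi-likelihood test with Benjamini-Hochberg adjustment over 14591 tested genes, with a gene called at 0.05. Trex1 had no counts in any library, also in WT, so the knockout could not be checked on its transcript. As a readout of the treatments, 10 of 10 interferon-stimulated genes were higher in Trex1-KO than in WT, 10 of 10 were lower with H151 and 10 of 10 were lower with SN-011 than in Trex1-KO. They did not all return to WT, since 8 of 10 with H151 (median log2 fold change 0.68) and 10 of 10 with SN-011 (0.90) were still called above it. The 7 macrophage markers (among them Adgre1, Csf1r and Mertk) summed to between 29727 and 31889 CPM in every library, most of it Lyz2 (a mean of 22058 CPM in WT and 21276 CPM in untreated Trex1-KO). Relative to WT, 3 of these 7 rose in Trex1-KO: Fcgr1 (2.20-fold), Cd68 (1.35-fold) and Adgre1 (1.14-fold). Fcgr1 was called lower with either antagonist than in untreated Trex1-KO, and the part of these shifts in the results below was not tested. The 8 neutrophil markers summed to 8.66 to 9.63 CPM in WT against 64.4 to 98.5 CPM for the 6 Trex1-KO libraries of all treatments, with Ly6g under 3 counts in WT and untreated Trex1-KO, and 5 of the 5 that passed the filter were called higher in Trex1-KO. The 8 stromal markers summed to 2247 to 2443 CPM in WT against 922 to 1287 CPM in those 6 libraries. The 4 cartilage markers summed to 87.0 to 105 CPM in WT against 20.3 to 29.0 CPM in the 6, with Acan under 3 counts in each group, Col2a1 and Sox9 called lower in Trex1-KO, and Col2a1 called higher with H151 than in Trex1-KO (0.49 on the log2 scale). The 5 dendritic cell markers summed to 1.49 to 2.95 CPM over all libraries, of which Xcr1 was called higher in Trex1-KO (a mean of 1.10 CPM, against 0.144 CPM in WT). The lymphocyte markers and the mast cell and basophil markers summed to at most 0.790 and 2.15 CPM, and Cpa3, the one that passed the filter, was not called. In bulk RNA, fewer cells of a type and less RNA per cell cannot be told apart. The part of these markers in the results below was not tested.

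Compared with WT, 7 of the 9 complement genes rose in Trex1-KO BMDMs and none fell. Without WT library 1 the count was 4 (C3, C4b, C3ar1 and C5ar1), and with scaling by library totals alone it was 5. C4b rose 3.42-fold and C3 rose 2.14-fold, the receptors C3ar1 and C5ar1 rose less, and Cfp and C1qb rose 1.19-fold and 1.17-fold, the last 2 with calls that were lost in both of these settings, while C1qa and C1qc did not pass the test. With either antagonist C3 lay within the range of WT, and C4b and C3ar1 stayed above WT with both. Of all 14591 tested genes, 16.4% were called between Trex1-KO and WT, and 9.27% were called higher. The median log2 fold change of the 9 genes was 0.39, beside -0.0020 over all tested genes. The libraries of Trex1-KO and WT did not overlap for 56.1% of all tested genes, so a lack of overlap is common at this group size. Factor B, the seventh called gene, passed the filter only through the groups where it was higher, and 6 of the other 8 were called without it.

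**Figure D1:**
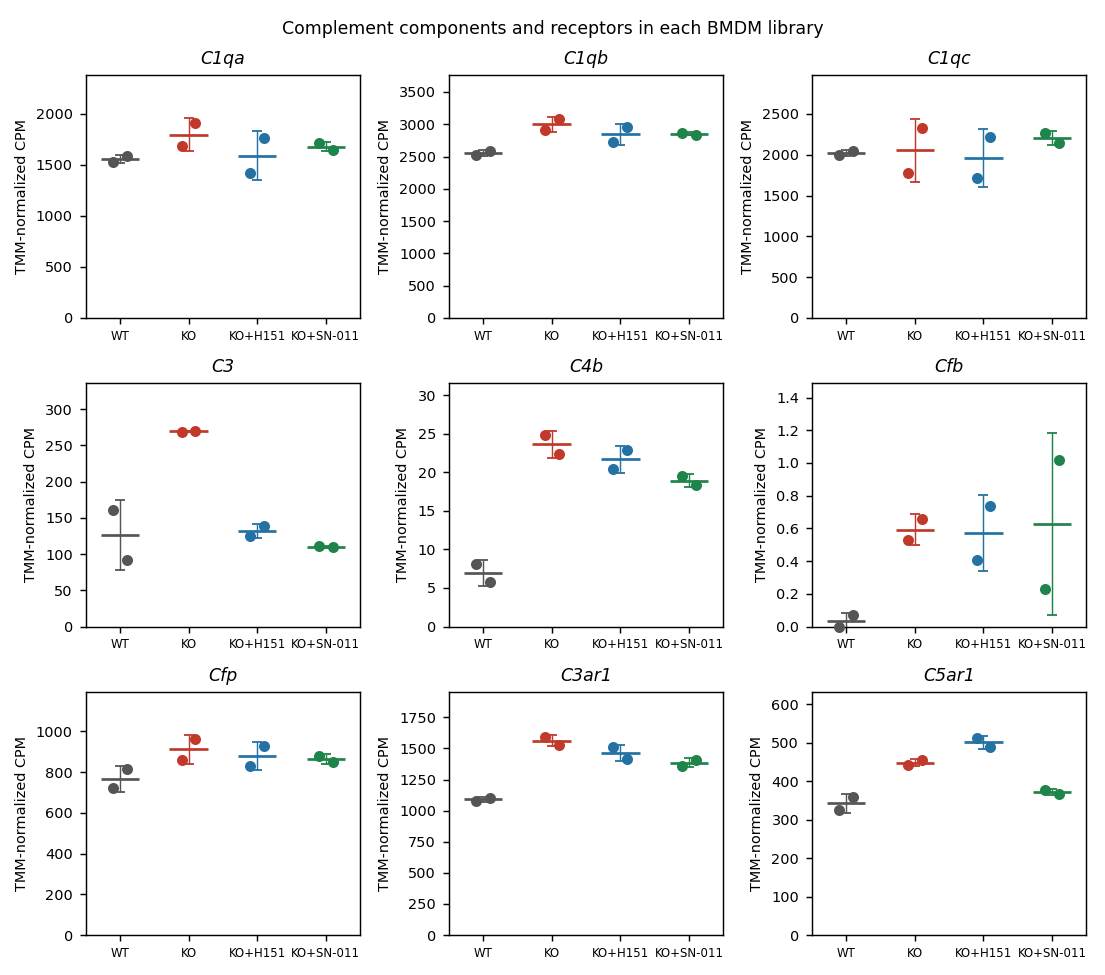
Level of each complement gene in TMM-normalized CPM (vertical axis, from 0, a scale of its own per panel) in the 4 groups; each point is 1 library, the bar is the group mean and the error bar 1 SD (n = 2). C3 is highest in the 2 Trex1-KO libraries, and C1qb, C4b, Cfb, Cfp, C3ar1 and C5ar1 are lowest in WT. The C1qc libraries of Trex1-KO and of H151 lie apart within their groups.

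C3 (ENSMUSG00000024164, chromosome 17, 57203970 to 57228136, minus strand, GRCm38) encodes the central component, on which all activation pathways converge. It measured 160.2 and 92.4 CPM in WT, 269 and 270.0 CPM in untreated Trex1-KO, 125 and 139 CPM with H151, and 111 and 109 CPM with SN-011. Both Trex1-KO libraries lay above the other 6, and both antagonist groups lay between the 2 WT libraries, which were themselves far apart. The log2 fold change between Trex1-KO and WT was 1.09 ± 0.16 (SE, n = 2 per group, edgeR adjusted p = 0.00034). Relative to Trex1-KO, C3 fell with H151 (log2 fold change -1.03 ± 0.16, edgeR adjusted p = 0.0028) and with SN-011 (-1.29 ± 0.17, edgeR adjusted p = 0.0005). Without WT library 1 the rise over WT was 1.53 on the log2 scale, and without WT library 2 it was 0.74, and the gene was called either way.

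Whether C3 was back at the WT level could not be settled, because the WT libraries differed. Against WT, the log2 difference was 0.06 with H151 (95% interval -0.29 to 0.42, edgeR adjusted p = 0.87) and -0.20 with SN-011 (95% interval -0.56 to 0.17, edgeR adjusted p = 0.56). Leaving out WT library 1 turned C3 with H151 into a called excess of 0.50 (edgeR adjusted p = 0.0036). Leaving out WT library 2 turned C3 with SN-011 into a called deficit of -0.55 (edgeR adjusted p = 0.0011).

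Because C3 fell with both antagonists and C3ar1, the gene of its anaphylatoxin receptor, did not pass the test with either, the 250 bases before the start of each are shown, from RefSeq on GRCm38.p6, read 5′ to 3′ on the strand of the gene. Of the 9 genes, 6 had such a sequence (C1qb, C1qc, C3, Cfp, C3ar1 and C5ar1). Capitals mark matches of 4 motifs searched on both strands from 250 bases before to 50 bases after each start: the interferon-stimulated response element, the gamma-activated site TTCNNNGAA, the PU.1 box GAGGAAGT and the C/EBP-type motif TTNNGNAA, the last chosen after the sequences had been seen.
C3, chr17:57228137-57228386: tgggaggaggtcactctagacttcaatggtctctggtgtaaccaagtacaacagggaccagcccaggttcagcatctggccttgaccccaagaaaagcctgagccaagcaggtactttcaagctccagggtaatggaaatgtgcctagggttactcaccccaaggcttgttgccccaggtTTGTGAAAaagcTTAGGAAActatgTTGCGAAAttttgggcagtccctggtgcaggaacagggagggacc
C3ar1, chr6:122856158-122856407: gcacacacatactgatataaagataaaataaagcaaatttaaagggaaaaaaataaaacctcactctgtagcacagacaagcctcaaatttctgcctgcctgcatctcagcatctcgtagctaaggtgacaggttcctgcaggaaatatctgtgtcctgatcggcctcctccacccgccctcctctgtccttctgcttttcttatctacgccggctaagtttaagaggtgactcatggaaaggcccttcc

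The C3 sequence held 3 matches of the C/EBP-type motif, TTGTGAAA, TTAGGAAA and TTGCGAAA, whose first bases lie 70, 58 and 45 bases before the start, and the C3ar1 window held no match of any motif. Of 32851 RefSeq promoter windows of the same length, 40.7% held at least 1 such match and 3.60% held 3 or more. The cut of 3 equals the count in C3, the highest of the 6 windows, so this rate is a description and no test. C1qc and C5ar1 held 1 match each. Neither the interferon-stimulated response element (3.44% of all windows) nor the gamma-activated site (8.30%) had a match in any of the 6 windows. The PU.1 box (3.20%) had 1 match among them, in C1qc, on the opposite strand. These are letters in a short window and show no binding.

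C4b (ENSMUSG00000073418, chromosome 17, 34728380 to 34743882, minus strand) encodes C4, the classical and lectin component that precedes C2 in the cascade. Its level was 8.09 and 5.75 CPM in WT, 24.8 and 22.4 CPM in untreated Trex1-KO, 20.4 and 22.9 CPM with H151, and 19.5 and 18.3 CPM with SN-011. All 6 Trex1-KO libraries lay above both WT libraries, with H151 overlapping untreated Trex1-KO and SN-011 slightly under it. The rise over WT was 1.77 ± 0.15 on the log2 scale (SE, n = 2 per group, edgeR adjusted p = 2.2e-06). H151 moved it by -0.12 (95% interval -0.41 to 0.17, edgeR adjusted p = 0.92) and SN-011 by -0.31 (95% interval -0.61 to -0.02, edgeR adjusted p = 0.37), neither of which passed the test. Over WT, C4b was still called higher with H151 (1.65 ± 0.15, edgeR adjusted p = 1.1e-05) and with SN-011 (1.46 ± 0.16, edgeR adjusted p = 3.5e-05).

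C4b has a close paralog, C4a, on the same chromosome. Their longest transcripts were 95.9% identical, and 8.26% of the 150-base windows of C4b were also found in C4a. Per the study's methods only uniquely mapped pairs were counted, so pairs lying wholly in such shared stretches would be missing from both counts. C4a itself had 14 to 34 counts per library and was not called between any groups.

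Factor B (Cfb, ENSMUSG00000090231, chromosome 17, 34856374 to 34862518, minus strand) is the protease of the alternative pathway convertase. It had 0 and 1 counts in WT, 7 and 10 in Trex1-KO, 5 and 11 with H151, and 4 and 12 with SN-011. Every Trex1-KO library was above WT, and the 3 Trex1-KO groups overlapped fully. Only 20.5% of its exonic bases are free of the readthrough gene Gm20547, named here after its values were seen, which had 0 counts, so these counts understate the level of the transcript. Scaled for library size, the ratio of Trex1-KO to WT counts was 17.0 with an exact 95% interval of 2.66 to 709, which covers counting error only. The call (edgeR adjusted p = 0.041) was lost with DESeq2 (adjusted p = 0.11) and without any 1 of the 4 libraries. Against untreated Trex1-KO the ratio was 0.985 (0.466 to 2.07) with H151 and 0.923 (0.437 to 1.94) with SN-011.

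C2, the protease that joins C4 in the classical convertase, is no member of the set but lies beside Cfb, with 41.9 kb between the outer ends of the pair, and C4b and Cfb span 134 kb. C2 measured 1.10 and 0.406 CPM in WT, 10.4 and 9.81 CPM in untreated Trex1-KO, 8.30 and 9.59 CPM with H151, and 8.60 and 8.65 CPM with SN-011. Only 53.1% of the exonic bases of C2 are free of other genes, so its counts also understate the level of the transcript. As with C4b, all 6 Trex1-KO libraries stood above WT and the antagonists left the level high. C2 rose by 3.75 ± 0.29 on the log2 scale in Trex1-KO (edgeR adjusted p = 6.8e-07), and was called higher than WT with H151 (3.58) and SN-011 (3.52). Over the 8 libraries it was the second of the 3 genes most like C4b (Pearson r of log2 CPM 0.992 among 10715 genes compared), a description across libraries that share 4 groups. C3 lies 22.5 Mb from C4b on the same chromosome. The summed neutrophil markers had the same shape over the groups as C4b and C2, low in WT and high in the 6 Trex1-KO libraries, and their part in these values was not tested.

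**Figure D2:**
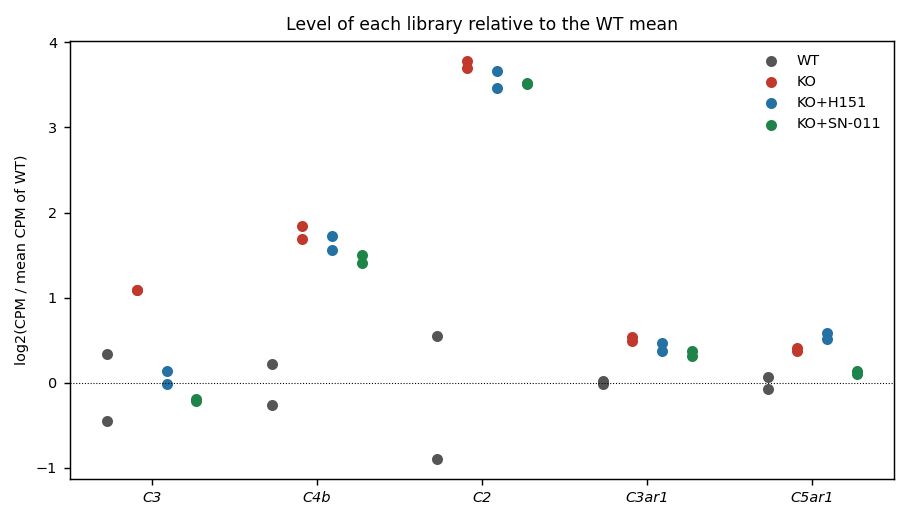
Log2 ratio of CPM in each library (1 point) to the mean CPM of the 2 WT libraries (dotted line at 0) for C3, C4b, C2, C3ar1 and C5ar1, coloured by group. C4b, C2, C3ar1 and C5ar1 stay above WT in all 6 Trex1-KO libraries, C5ar1 only narrowly with SN-011. C3 falls back among the WT points with both antagonists, and C5ar1 is highest with H151.

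Properdin (Cfp, ENSMUSG00000001128, chromosome X, 20925454 to 20931555, minus strand) stabilizes the alternative convertase and is made by myeloid cells. Its values were 723 and 813 CPM in WT, 861 and 961 CPM in untreated Trex1-KO, 832 and 929 CPM with H151, and 880.3 and 848 CPM with SN-011. The 6 Trex1-KO libraries were all above WT by a small margin and overlapped one another. The rise in Trex1-KO was 0.25 ± 0.07 on the log2 scale (edgeR adjusted p = 0.035). It was not called with scaling by library totals alone (0.16, edgeR adjusted p = 0.15), without WT library 1 (0.15) or without Trex1-KO library 2 (0.16). With H151 it differed from untreated Trex1-KO by -0.049 (95% interval -0.21 to 0.11) and with SN-011 by -0.076 (-0.23 to 0.082).

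The receptor C3ar1 (ENSMUSG00000040552, chromosome 6, 122847138 to 122856161, minus strand) binds C3a. It measured 1077 and 1105 CPM in WT, 1591 and 1529 CPM in untreated Trex1-KO, 1512 and 1419 CPM with H151, and 1363 and 1409 CPM with SN-011. WT was lowest and untreated Trex1-KO highest, and no library of one of these 2 groups reached any library of another group. C3ar1 rose by 0.52 ± 0.05 on the log2 scale in Trex1-KO (edgeR adjusted p = 8.5e-06). Neither H151 (-0.09, 95% interval -0.20 to 0.02, edgeR adjusted p = 0.68) nor SN-011 (-0.17, 95% interval -0.28 to -0.06, edgeR adjusted p = 0.14) passed the test against Trex1-KO. It stayed above WT with H151 (0.43, edgeR adjusted p = 9.0e-05) and with SN-011 (0.34, edgeR adjusted p = 0.00048).

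The receptor C5ar1 (ENSMUSG00000049130, chromosome 7, 16246743 to 16259540, minus strand) binds C5a and guides leukocytes to sites of activation. Its values were 324 and 359 CPM in WT, 442 and 454 CPM in untreated Trex1-KO, 512 and 489 CPM with H151, and 377 and 367 CPM with SN-011. The 4 groups did not overlap, in the order WT, SN-011, untreated Trex1-KO and H151. C5ar1 rose by 0.39 ± 0.06 on the log2 scale in Trex1-KO (edgeR adjusted p = 0.00047). With H151 it was 0.16 above Trex1-KO (95% interval 0.03 to 0.29, edgeR adjusted p = 0.35), which did not pass the test, and it remained above WT (0.55, edgeR adjusted p = 4.3e-05).

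With SN-011, C5ar1 fell by 0.27 on the log2 scale relative to Trex1-KO (SE 0.06, edgeR adjusted p = 0.034). This call was lost with scaling by library totals alone (edgeR adjusted p = 0.074) and without any 1 of the 4 libraries (adjusted p of 0.11 to 0.32). Over WT its difference with SN-011 was 0.12 (95% interval -0.01 to 0.25, edgeR adjusted p = 0.26).

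Between the antagonists, C5ar1 was the only one of the 9 genes called, lower with SN-011 than with H151 by -0.43 ± 0.06 on the log2 scale (edgeR adjusted p = 0.013). Of all tested genes 0.158% were called in this comparison. The call was lost without SN-011 library 1 (-0.45, edgeR adjusted p = 0.30) or SN-011 library 2 (-0.41, edgeR adjusted p = 0.23). For C3 the difference was -0.26 (95% interval -0.62 to 0.10), for C4b -0.19 (-0.49 to 0.10) and for C3ar1 -0.080 (-0.19 to 0.030). These intervals leave room for lower C3 and C4b with SN-011. SN-011 libraries have later record numbers and a treatment text of their own in the labels, so compound and batch cannot be told apart. The same holds for SN-011 against untreated Trex1-KO and against WT.

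**Figure D3:**
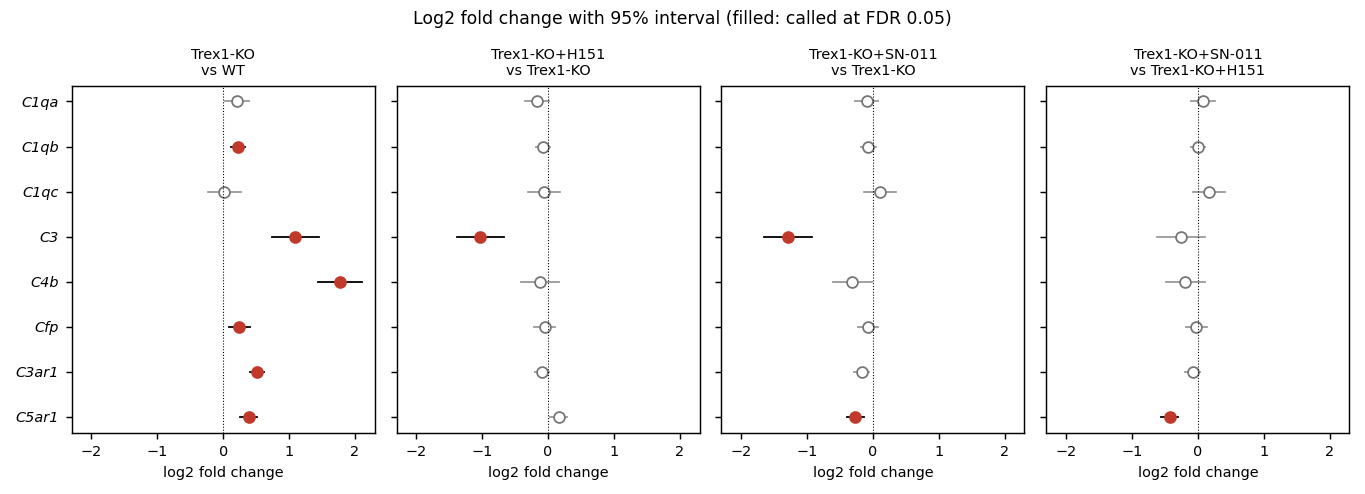
Log2 fold change (horizontal axis, with 95% interval) of 8 complement genes in 4 comparisons; filled points were called at an adjusted p of 0.05. Cfb is left out because WT had 1 count. C3 is the gene farthest from 0 with either antagonist, and C5ar1 is the one called between the antagonists.

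The C1q chains were the most abundant of the set. C1qa (ENSMUSG00000036887), C1qc (ENSMUSG00000036896) and C1qb (ENSMUSG00000036905) lie on the minus strand of chromosome 4 within 18.7 kb, between 136880129 and 136898803, and each C1q molecule is built from the 3 chains. C1qb measured 2525 and 2587 CPM in WT, 2918 and 3079 CPM in untreated Trex1-KO, 2728 and 2959 CPM with H151, and 2870.1 and 2840.1 CPM with SN-011. Its WT libraries were the lowest 2 of the 8. The rise in Trex1-KO was 0.23 ± 0.05 on the log2 scale (edgeR adjusted p = 0.0058), and it was lost with scaling by library totals alone (0.15, edgeR adjusted p = 0.062) and without WT library 1 (0.20, edgeR adjusted p = 0.069).

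C1qa measured 1527 and 1582 CPM in WT, 1680.3 and 1908 CPM in untreated Trex1-KO, 1421 and 1759 CPM with H151, and 1710.1 and 1644 CPM with SN-011. Trex1-KO lay above WT without overlap, but the difference of 0.21 (95% interval 0.03 to 0.39, edgeR adjusted p = 0.12) did not pass the test. It was called with every gene of at least 1 count kept (0.19, edgeR adjusted p = 0.00045) and with only the 2 groups fitted (0.21, edgeR adjusted p = 0.039). C1qc measured 1999.7 and 2049.7 CPM in WT, 1777 and 2330.0 CPM in untreated Trex1-KO, 1714 and 2217 CPM with H151, and 2269.7 and 2149 CPM with SN-011. The Trex1-KO libraries lay on either side of WT, and the difference was 0.02 (95% interval -0.23 to 0.27, edgeR adjusted p = 0.94), with a sign that turned with scaling by library totals alone (-0.065). No C1q chain was called with either antagonist against Trex1-KO.

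Per kilobase of exon, C1qb made up 47.9% to 52.7% of the summed C1q chains in the 8 libraries, C1qa 28.7% to 31.2% and C1qc 17.6% to 21.5%. The chain proportions thus varied by a few percentage points between libraries, and library 1 of Trex1-KO had the lowest share of C1qc. Over the 9 genes the order of levels per kilobase was the same in all 4 groups, C1qb, C1qa, C1qc, Cfp, C3ar1, C5ar1, C3, C4b and Cfb, and no neighbours in it overlapped between libraries of a group. In Trex1-KO it ran from 2756 CPM per kilobase for C1qb through 525 for Cfp, 362 for C3ar1, 174 for C5ar1 and 52.4 for C3 to 4.14 for C4b. The genes with the largest rise were therefore among the lowest in level.

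**Figure D4:**
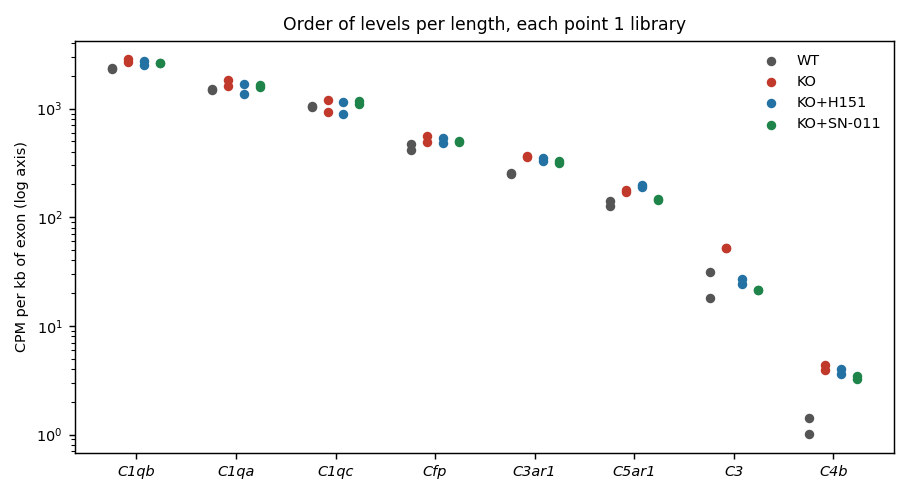
CPM per kilobase of exon (log axis) of 8 complement genes in the order of their levels, each point 1 library, coloured by group; Cfb is left out because 1 WT library was at 0. The C1q chains lie about 3 orders of magnitude above C4b in WT.

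With H151, C3 was the 1 complement gene of 9 called against Trex1-KO, where 2.23% of all tested genes were called and 1.84% were called lower. With SN-011, C3 and C5ar1 were called, both lower, where 2.33% of all genes were called and 2.22% were called lower. The median log2 fold change of the 9 genes was -0.076 with H151 and -0.097 with SN-011, beside 0.0012 and 0.0088 over all genes. Both comparisons share the untreated Trex1-KO libraries. Against WT, 3 of the 9 were called higher with H151 (C3ar1, C4b and C5ar1), where 11.8% of all genes were called and 6.79% higher, and 2 of the 9 with SN-011 (C3ar1 and C4b), where 11.7% were called and 6.18% higher. Both counts against WT changed with the filter, the replicate block and a required fold, as given in the closing section.

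Beyond the 9 genes, 47 other complement genes were listed, of which 24 passed the filter. In Trex1-KO 6 of these rose and 5 fell relative to WT, with a median log2 fold change of 0.04. Beside C2, those that rose were the C1 protease C1ra (0.50), the membrane regulator Cr1l (0.20), and the receptors C5ar2 (0.51), Itgb2 (0.45) and Cd93 (0.32). Itgb2 is the common chain of the complement receptors of the integrin family, and its partners Itgam and Itgax were not called. Those that fell included Serping1 (-0.78), the inhibitor of the C1 proteases, Csmd1 (-1.12), the lectin pathway protease Masp1 (-1.75) and the scavenger collectin Colec12 (-0.85).

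Among the stromal markers 6 of the 7 tested fell in Trex1-KO as well, and their part in the lower levels of these genes was not tested. Serping1 measured 9.48 and 6.57 CPM in WT, 5.20 and 4.15 CPM in untreated Trex1-KO, 8.54 and 7.25 CPM with H151, and 6.80 and 7.55 CPM with SN-011. It was lowest in untreated Trex1-KO, and the differences with H151 (0.76, edgeR adjusted p = 0.14) and SN-011 (0.62, edgeR adjusted p = 0.25) did not pass the test.

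By edgeR, 0 of the 24 were called with H151, 0 with SN-011 and 0 between the antagonists, and 3, 2 and 0 had an unadjusted p under 0.05. Of the 7 genes of the terminal pathway, which forms the membrane attack complex, only C8g passed the filter, and Hc, which encodes C5, had 0 counts in every library. Factor D (Cfd), the activating protease of the alternative pathway, had at most 1 count in a library. The precursor of the C5ar1 ligand and the protease that cleaves factor B were thus not detectable at this depth, where 3 counts were worth 0.174 to 0.253 CPM.

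**Figure D5:**
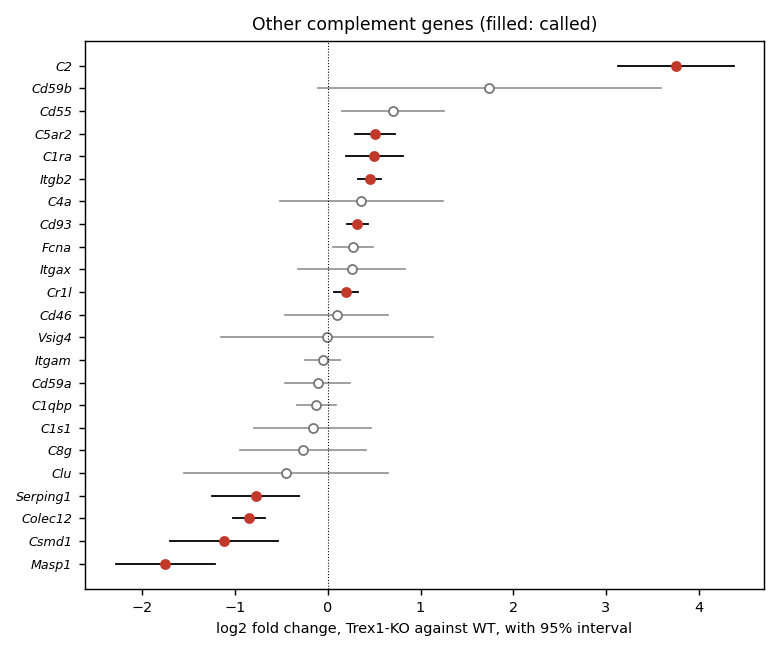
Log2 fold change between Trex1-KO and WT, with 95% interval, of other complement genes that passed the filter; filled points were called at an adjusted p of 0.05. C2 lies far to the right, and the called genes on the left are Serping1, Colec12, Csmd1 and Masp1.

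The genes whose log2 CPM followed each complement gene most closely over the 8 libraries are given as a description. For C3 they were Acod1 (Pearson r 0.988), D5Ertd579e (0.987) and Slc31a2 (0.985). For C4b they were Ctnnd2 (0.993), C2 (0.992) and Slamf9 (0.991), and for C3ar1 March1 (0.997), Nlrp1b (0.996) and Elf1 (0.993). C5ar1 was followed most closely by Msr1 (0.966) and Tiparp (0.961). For C1qb they were Ccl9, 2310001H17Rik and H2-M3, for C1qa Rasgrp4, Chmp4b and Selenow, and for C1qc Tomm40l, Tnfaip8 and Rap1a. Cfp was followed by Gm6634, Hsd17b11 and Uckl1, and Cfb, with few counts, by Ube3a, Nipal3 and Ciao1.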

How the data were processed

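Polyadenylated RNA of BMDMs was sequenced in paired reads of 8 libraries. Per the study's methods the authors trimmed reads with Trimmomatic, aligned them with hisat2 and used featureCounts to count, for each gene, the pairs that mapped uniquely, whereas the submitters' processing notes name HISAT2, HTSeq and build mm10. Tool versions, annotation and strand setting are not given in the sources used here, and the sources name different HiSeq instruments. The deposited values are raw counts without normalization. Reads shared by overlapping genes were left uncounted, as seen in genes that lie wholly within another gene.

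Symbols, positions and exon lengths came from GENCODE mouse release M21 on GRCm38 (54495 of 54532 identifiers matched), and promoters from RefSeq. Genes were filtered with filterByExpr (minimum count 10, minimum total 15), scaled by TMM and tested in edgeR 4.0.16 under R 4.3.3 with 1 mean per group and all 8 libraries in 1 fit, two-sided, at an adjusted p of 0.05. The common biological coefficient of variation was 0.0656. DESeq2 1.42.0, edgeR's exact test and other filters and scalings served as alternatives. The test was checked on simulated counts. Replicates of each group differed by more than counting noise (chi-square over degrees of freedom 3.23 to 6.54), so each was kept as 1 sample. Read pairs carry no molecular identifiers, so intervals on counts cover counting error only.

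The 9 genes were named whatever their values, other complement genes where called in any of 6 comparisons, and for each of the 9 the 3 genes of average log2 CPM of at least 2 with the highest Pearson r. The genes, lists and motifs were chosen with earlier results of these data known. Per kilobase levels used the exonic bases not shared with another gene. A planned comparison of protein sequences was not run. Some results are not reported here.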

Additional observations from a re-analysis of the deposited data

Results flagged for a closer look

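C5ar1 differed between the antagonists in a direct test, with a log2 fold change of -0.43 for SN-011 against H151 (edgeR adjusted p = 0.013, n = 2 per group). Both SN-011 libraries (377 and 367 CPM) lay under both H151 libraries (512 and 489 CPM). The call was lost without SN-011 library 1 (edgeR adjusted p = 0.30) or SN-011 library 2 (edgeR adjusted p = 0.23), and compound and batch cannot be told apart.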

How the results depend on the processing

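Of 632 recomputed results over the alternatives, 556 were rated the same, 29 stronger, 17 weaker and 30 reversed. For a single gene these mean that it kept its direction and side of the threshold, passed it newly, lost it or changed sign. The results include counts of called genes, which were rated the same unless they moved by a large factor, so single calls could change within them. The alternatives for the fold changes between the antagonists and against WT were added after seeing the data. Apart from a required fold, under each alternative run C3 stayed called in Trex1-KO against WT and with either antagonist against Trex1-KO, and C4b, C3ar1 and C5ar1 in Trex1-KO against WT. Requiring a change of 2-fold or more left 3 of 9 genes called in Trex1-KO against WT, 1 with SN-011 against Trex1-KO, 0 between the antagonists, and 1 each with H151 and SN-011 against WT. Scaling by library totals left 1 with SN-011 against Trex1-KO. Keeping every gene with at least 1 count gave 2 with H151 against Trex1-KO, 3 between the antagonists, and 6 each with H151 and SN-011 against WT. Fitting only the 2 groups compared gave 5 with SN-011 against WT. The titles number untreated and treated Trex1-KO libraries alike, and no source says whether same-numbered libraries share cells. Correlations of deviations between them ran from -0.02 to 0.19, the highest between untreated Trex1-KO and H151. Pairing was therefore not settled, and the main fit did not use it. With the replicate block, 6 of 9 were called with H151 against WT and 4 with SN-011 against WT. Leaving out 1 library at a time gave 4 to 6 called in Trex1-KO against WT, 1 to 2 with H151 and 1 with SN-011 against Trex1-KO, 0 to 1 between the antagonists, and 3 to 5 and 2 to 3 against WT with H151 and SN-011. Causes were not tested.

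Signs turned for values near 0 and for C3 against WT. With library totals C1qc in Trex1-KO against WT was -0.065 and C1qa with H151 against WT was -0.029. Between the antagonists Cfb was 0.00042 with every gene of at least 1 count kept and 0.027 with the replicate block. Leaving out 1 library at a time gave these log2 ranges. In Trex1-KO against WT, C1qc ran from -0.19 to 0.19. With H151 against Trex1-KO, C1qc ran from -0.26 to 0.15, Cfb from -0.54 to 0.31 and Cfp from -0.13 to 0.035. With SN-011 against Trex1-KO, C1qc ran from -0.075 to 0.31, Cfb from -1.32 to 0.76 and Cfp from -0.15 to 0.0057. Between the antagonists, C1qa ran from -0.067 to 0.24, C1qb from -0.050 to 0.064, C1qc from -0.0033 to 0.37, Cfb from -1.29 to 0.79 and Cfp from -0.10 to 0.055. With H151 against WT, C1qa ran from -0.14 to 0.17, C1qc from -0.25 to 0.12 and C3 from -0.29 to 0.50. With SN-011 against WT, C3 ran from -0.55 to 0.24.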
